A study of Mus musculus with 21 samples.

Results

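The chemokine receptor genes *Cxcr3* and *Cxcr6* and their ligand genes *Cxcl9*, *Cxcl10*, *Cxcl11* and *Cxcl16* were followed in the skin and the skin-draining lymph nodes of mice that overexpress interferon kappa in the epidermis. These 6 genes were taken by symbol from the 55491 genes of the count tables. All 6 could be tested in skin and 5 in lymph nodes, where *Cxcl11* did not pass the filter on low counts. *Ifnk* TG mice carry *Ifnk* under the keratin 14 promoter, which is active in basal keratinocytes. They were made on C57Bl/6 and backcrossed to BALB/c, and the WT mice were BALB/c. Skin came at 12 months of age from 3 WT samples, 2 nonlesional (NL) and 4 lesional (L) *Ifnk* TG samples. NL skin was taken from the back and from areas comparable to lesions. Inguinal lymph nodes came from young WT and *Ifnk* TG mice without lesions, either left untreated (no UV) or given UVB (250 mJ/cm2 at 310 nm on 3 days per week for 2 weeks, then 2 weeks of observation), with 3 samples in each of the 4 groups. Nodes were passed through a cell strainer before lysis, and the age of these mice in months is not given. The labels number the samples, place them all in batch 1 and give no sex, body site or animal, so p-values measure the spread between these samples, and L and NL samples may or may not share a mouse.

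CXCL9, CXCL10 and CXCL11 are induced by interferons, CXCL9 mainly by interferon gamma, and draw activated T helper 1 cells, cytotoxic T cells and NK cells through their shared receptor CXCR3. CXCL16 is made as a membrane-bound chemokine that also acts as a scavenger receptor, and its shed form attracts cells that carry CXCR6, a receptor typical of tissue-resident and effector T cells, NKT cells and innate lymphoid cells. In skin the CXCR3 ligands come from keratinocytes, macrophages, dendritic cells and fibroblasts, and the CXCR3 axis is known from interface dermatitis.

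The 3 CXCR3 ligand genes lie side by side on the minus strand of chromosome 5 (GRCm38, GENCODE M21), *Cxcl9* at 92321347 to 92328079, *Cxcl10* at 92346638 to 92348889 and *Cxcl11* at 92359544 to 92365485, within 44139 bases. The reference annotation classes *Cxcl11* as a polymorphic pseudogene. The counts do not show whether the *Cxcl11* transcript of these BALB/c mice encodes a protein. *Cxcl16* lies on chromosome 11 (70453983 to 70459984, minus strand), *Cxcr6* on chromosome 9 (123806475 to 123811760, plus strand) and *Cxcr3* on chromosome X (101731535 to 101734269, minus strand). The 250 bases before the start sites of *Cxcl9* (chr5:92328080-92328329, minus strand) and *Cxcl10* (chr5:92348890-92349139, minus strand) are shown because these neighbours moved together in skin. The sequences are from RefSeq on GRCm38.p6. Capitals mark matches, on either strand, to the interferon-stimulated response element core GAAANNGAAA, the gamma-activated site TTCNNNGAA or the NF-κB consensus.

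*Cxcl9*: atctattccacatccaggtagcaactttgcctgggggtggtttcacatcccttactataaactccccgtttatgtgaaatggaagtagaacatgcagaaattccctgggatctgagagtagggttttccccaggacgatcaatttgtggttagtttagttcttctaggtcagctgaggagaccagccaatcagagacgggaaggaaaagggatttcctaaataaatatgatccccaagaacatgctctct

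*Cxcl10*: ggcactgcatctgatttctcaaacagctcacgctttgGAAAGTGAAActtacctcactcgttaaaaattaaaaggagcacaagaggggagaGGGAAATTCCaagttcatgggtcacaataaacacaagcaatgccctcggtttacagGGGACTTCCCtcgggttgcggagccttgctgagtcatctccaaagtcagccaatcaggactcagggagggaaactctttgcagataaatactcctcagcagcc

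The *Cxcl10* window held 1 response element core, 213 to 204 bases before the start, and 2 NF-κB consensus matches, at 159 to 150 and 103 to 94 bases before it, none of which overlap. Among 32851 promoters of the same length, 2.98% held the response element core, 3.90% the NF-κB consensus and 7.02% the gamma-activated site. The windows of *Cxcl9*, *Cxcr3* and *Cxcr6* held none of the 3 motifs in these letters. *Cxcl11* and *Cxcl16* had no entry.

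Skin libraries held between 40499078 and 56511276 counts and node libraries between 27599809 and 36428435. Keratinocyte markers summed to between 9779 and 25544 CPM (counts relative to the library total after TMM scaling) in skin and between 1.38 and 3.12 in nodes, and T cell markers to between 2698 and 3452 CPM in nodes. *Ifnk* itself had 14, 11, 5 and 8 counts in L samples 4 to 7, 6 and 0 in NL samples 2 and 3, and 0 in the 3 WT skin and all 12 node libraries, so it does not check the labels of NL sample 3 or of any node. Against a floor of 3 counts per WT library, *Ifnk* was at least 2.74-fold higher in L skin. The L libraries also differed from WT skin in tissue makeup, in a comparison where 23.0% of all genes were called higher and 20.2% lower. Of 7 hair shaft markers 7 were higher (summed 1523 to 5549 against 0.547 to 1.81 CPM). Of 6 skeletal muscle markers 2 were lower (19.3 to 6065 against 22082 to 31294 CPM). Of 5 adipocyte markers 2 were lower (621 to 3044 against 4207 to 7823 CPM). Of 5 endothelial markers 4 were lower in L than in WT (84.6 to 165 against 194 to 274 CPM), and of 4 tested neutrophil markers 2 were higher (54.3 to 540 against 9.03 to 18.3 CPM). The part of these tissues and cells in the results below was not tested.

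The first question was which parts of both axes were raised in lesions. L skin held more transcript than WT skin for all 3 CXCR3 ligands, for *Cxcl16* and for *Cxcr6*, whereas *Cxcr3* did not pass the test. Of the 6 genes, 5 were called higher, against 23.0% of the 19101 genes tested, and the same 5 had no overlap of libraries, against 26.0% of all genes. The median log2 fold change of the 6 genes was 3.32, and that of all genes was 0.06.

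*Cxcl9* stood at 2.24, 0.784 and 0.866 CPM in WT samples 8 to 10, at 2.05 and 0.711 in NL samples 2 and 3, and at 91.8, 41.5, 169.85 and 19.9 in L samples 4 to 7. Every L library lay far above the other 5, and the lowest L library was sample 7. The log2 fold change over WT was 5.95 (SE 0.95, adjusted p = 0.00198, edgeR's quasi-likelihood F-test). *Cxcl10*, the ligand most used as a readout of interferon, stood at 0.616, 0.0237 and 0.420 CPM in WT, 0.516 and 0.0736 in NL, and 13.3, 2.89, 20.5 and 1.77 in L skin. Its log2 fold change was 4.75 (SE 1.25, adjusted p = 0.0168), and without WT sample 10 the adjusted p was 0.0544. *Cxcl11*, the ligand with the highest affinity for CXCR3, had 10, 4 and 0 counts in WT, 9 and 3 in NL, and 544, 104, 1034 and 42 in L skin. The L libraries again did not overlap with the others, and sample 6 was highest and sample 7 lowest for all 3 ligands. The log2 fold change of *Cxcl11* was 6.32 (SE 1.46, adjusted p = 0.0100), and it rests on WT counts of 10 or fewer. Among the L samples themselves, the highest library exceeded the lowest 8.54-fold for *Cxcl9*, 11.6-fold for *Cxcl10* and 30.1-fold for *Cxcl11*.

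*Cxcr3*, the receptor of these ligands, stood at 1.09, 2.97 and 2.15 CPM in WT, 1.76 and 1.35 in NL, and 2.40, 2.71, 4.23 and 1.35 in L skin. The groups overlapped, with WT sample 9 above 3 of the 4 L libraries. The log2 fold change over WT was 0.37 (SE 0.44, adjusted p = 0.528). The gene had between 48 and 192 counts per library, so small changes were not detectable at this spread. *Cxcr6* stood at 6.43, 5.34 and 6.16 CPM in WT, 6.50 and 8.27 in NL, and 20.8, 30.5, 25.6 and 11.5 in L skin. All 4 L libraries exceeded the other 5, and the log2 fold change was 1.88 (SE 0.31, adjusted p = 0.00166). *Cxcl16* stood at 29.8, 27.4 and 28.1 CPM in WT, 41.5 and 50.1 in NL, and 73.7, 75.5, 73.1 and 35.6 in L skin. Of the L libraries 3 lay close together and sample 7 lay below both NL libraries, although still above WT. The log2 fold change of *Cxcl16* was 1.18 (SE 0.25, adjusted p = 0.00545).

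**Figure D1:**
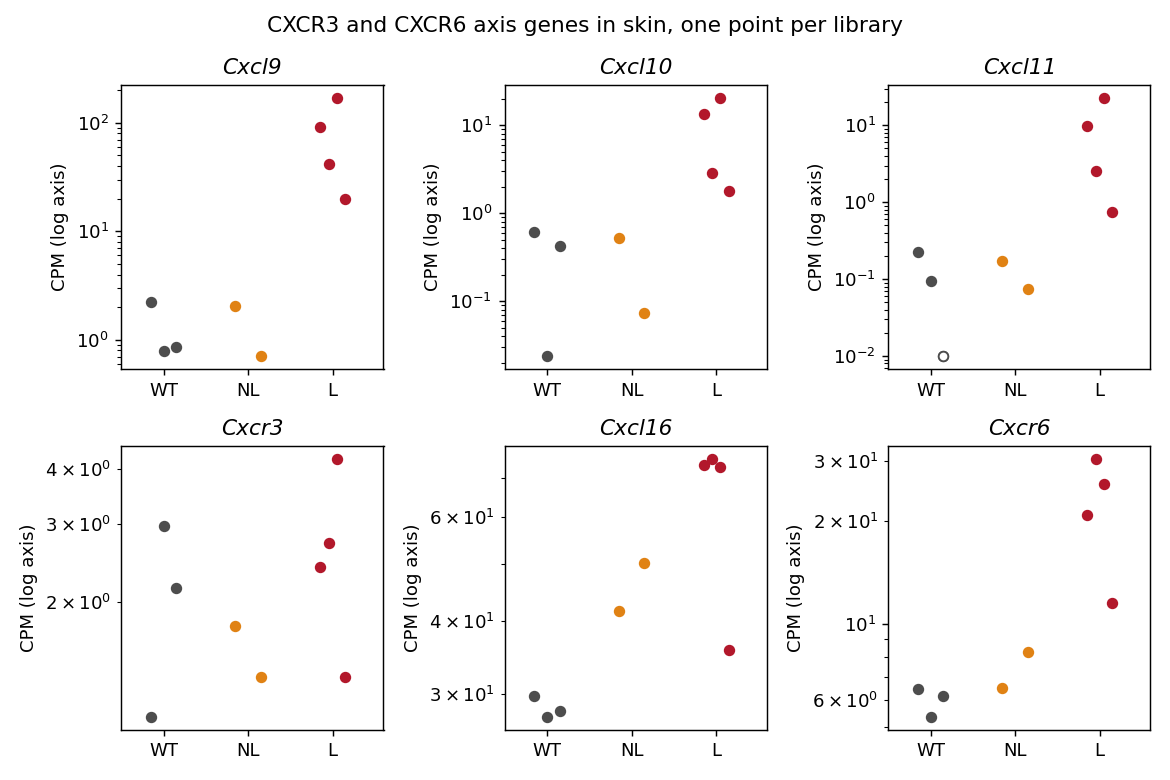
CPM of each axis gene (log axis) in the 9 skin libraries, with WT, NL and L on the horizontal axis and a point per library. The open point is the WT library with 0 *Cxcl11* counts, drawn at 0.01 CPM; the 4 L points lie above all others for *Cxcl9*, *Cxcl10*, *Cxcl11* and *Cxcr6*, but not for *Cxcr3*.

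L was next compared with NL skin of the same genotype. *Cxcl9* (log2 fold change 5.85, SE 1.14, adjusted p = 0.00928), *Cxcl10* (4.97, SE 1.51, adjusted p = 0.0459), *Cxcl11* (6.12, SE 1.72, adjusted p = 0.0353) and *Cxcr6* (1.58, SE 0.35, adjusted p = 0.0135) were higher in L. These 4 of 6 genes compare with 13.2% of all genes called higher, and the same 4 had no overlap of libraries, against 24.7% of all genes. *Cxcr3* (0.78, SE 0.51, adjusted p = 0.292) and *Cxcl16* (0.49, SE 0.28, adjusted p = 0.220) did not pass. Without L sample 7, *Cxcl16* passed with a log2 fold change of 0.70 (adjusted p = 0.00508). The comparison rests on 2 NL libraries. Without NL sample 2 or without NL sample 3, 0 of the 6 genes passed in edgeR, with the lone NL library taken to vary like the other groups. With the fit limited to L and NL or with no filter on low counts, *Cxcl10* and *Cxcl11* did not pass. *Cxcl10* also missed the threshold without L sample 4 or 6 or WT sample 8 or 10 (adjusted p between 0.0587 and 0.0693), and *Cxcl11* without WT sample 9 (adjusted p = 0.0539).

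NL skin was compared with WT skin to ask which differences were present outside lesions. No axis gene passed in edgeR (0 of 6, against 0% of all 19101 genes), 1 had an unadjusted p under 0.05, and DESeq2 called 0 of the 6 and 62 genes in all, with 1465 genes at an unadjusted p under 0.05 in edgeR. That gene was *Cxcl16*, for which both NL libraries lay above all 3 WT libraries (log2 fold change 0.69, SE 0.28, adjusted p = 0.645). *Cxcr6* libraries did not overlap either (0.30, SE 0.35, adjusted p = 0.842). These 2 of 6 genes compare with 18.6% of all genes that were higher without overlap. The CXCR3 ligands differed by 0.11 (SE 0.97), -0.21 (SE 1.43) and 0.20 (SE 1.86) for *Cxcl9*, *Cxcl10* and *Cxcl11*, with standard errors too wide to speak of equality, and *Cxcr3* by -0.41 (SE 0.53).

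**Figure D2:**
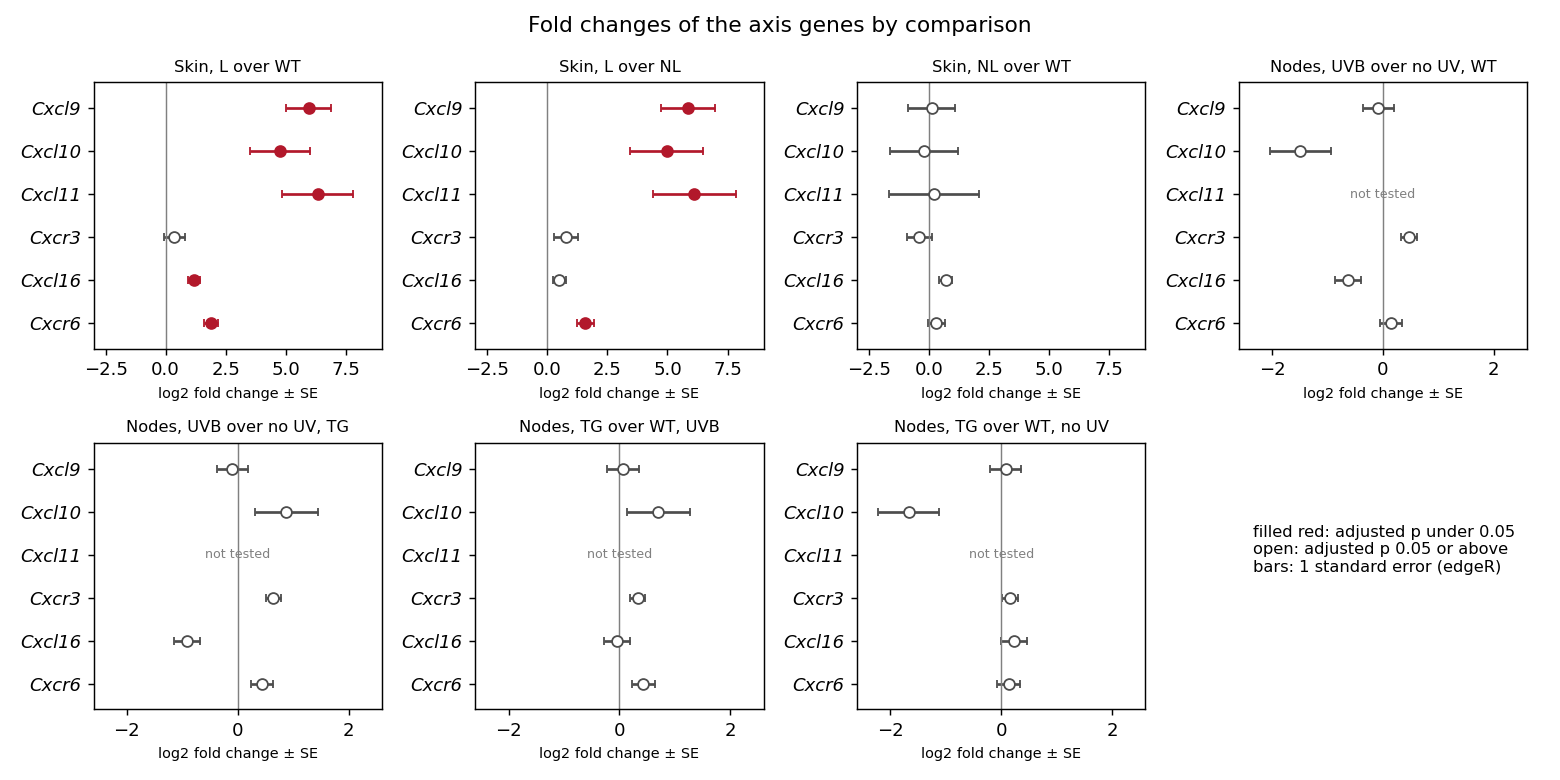
Log2 fold change of each axis gene (horizontal axis, with 1 standard error) in 3 skin and 4 lymph node comparisons, filled red where the adjusted p is under 0.05. Skin panels reach further along the axis than node panels; the CXCR3 ligands in L skin are the largest changes shown.

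Levels were then compared between genes as TPM, which here scale counts by the joined length of all annotated exons and by library size. The annotated exons of *Cxcl10* together cover 2252 bases, its whole span on the chromosome, so its TPM may be too low beside other genes. Orders, shares and ratios that involve *Cxcl10* depend on this length. In WT skin the order of mean levels was *Cxcl16* (22.5 TPM ± 0.692, SD, n = 3), *Cxcr6* (7.40 ± 0.666), *Cxcr3* (2.87 ± 1.32), *Cxcl9* (1.02 ± 0.626), *Cxcl10* (0.374 ± 0.316) and *Cxcl11* (0.0671 ± 0.0709). *Cxcl16* and *Cxcr6* stood clear of each other and of the rest, whereas the ranges of each pair of neighbours from *Cxcr3* down overlapped. NL skin had the same order of means, with *Cxcl16* at 38.9 TPM ± 2.48 (SD, n = 2) and *Cxcr6* at 9.79 ± 0.993. In L skin the order was *Cxcl9* (66.1 TPM ± 60.5, SD, n = 4), *Cxcl16* (50.7 ± 13.7), *Cxcr6* (27.2 ± 9.13), *Cxcl10* (10.5 ± 10.5), *Cxcl11* (5.94 ± 7.16) and *Cxcr3* (3.76 ± 1.95), and the ranges of all neighbours overlapped. Within libraries, *Cxcl9* exceeded *Cxcl16* in 2 of 4 L samples, while *Cxcl16* exceeded *Cxcr6* and *Cxcr6* exceeded *Cxcl10* in 4 of 4. *Cxcl9* made up 78.1%, 87.5%, 78.8% and 87.0% of the summed ligand TPM in L samples 4 to 7, and *Cxcl11* at most 8.41%.

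The ligands were related to their receptors in each library. The summed CXCR3 ligand TPM was 1.70, 0.172 and 0.381 times that of *Cxcr3* in WT samples 8 to 10, 0.938 and 0.369 times in NL samples 2 and 3, and 28.1, 10.0, 29.2 and 9.71 times in L samples 4 to 7. With these lengths, ligand transcript thus exceeded receptor transcript in every L library and in 1 of the 5 other skin libraries. *Cxcl16* exceeded *Cxcr6* in all 9 skin libraries, by 2.96, 3.28 and 2.92 times in WT, 4.08 and 3.87 times in NL, and 2.26, 1.58, 1.83 and 1.98 times in L skin. This ratio was lower in each L library than in any WT or NL library, since *Cxcr6* differed more than its ligand; the difference in ratio was not tested. *Cxcr6* exceeded *Cxcr3* by between 5.42 and 10.1 times in L and between 1.61 and 5.49 times in the other skin libraries.

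**Figure D3:**
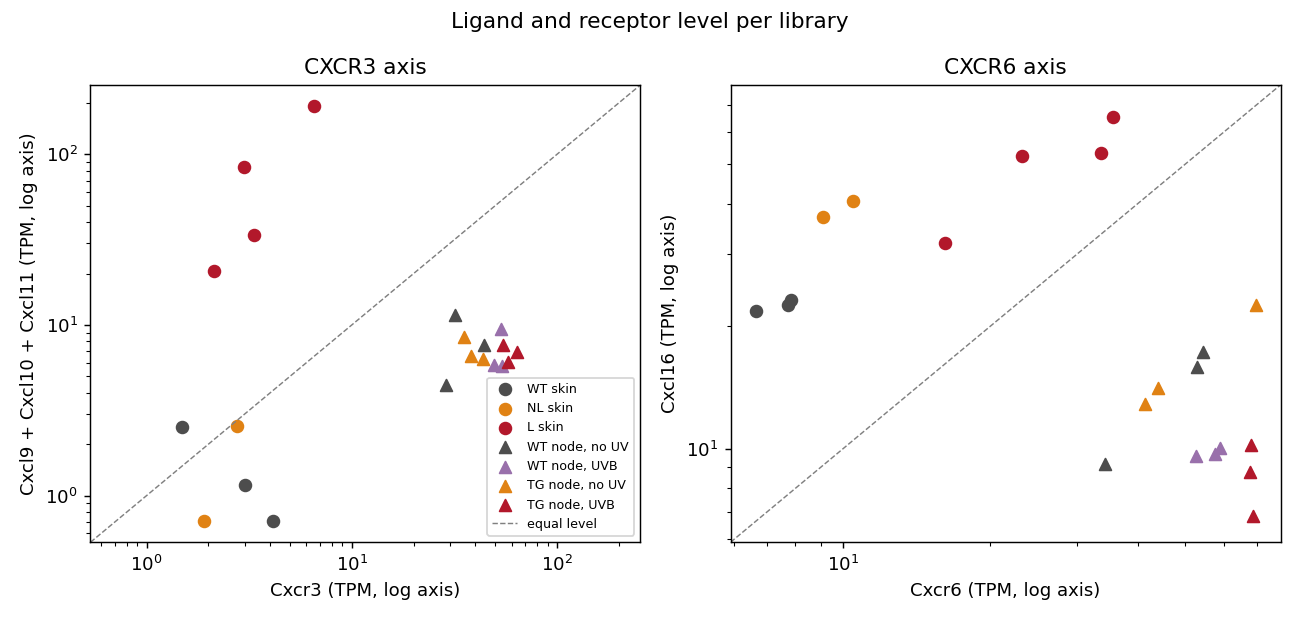
Receptor TPM (horizontal, log axis) against ligand TPM (vertical, log axis) per library for the CXCR3 axis (summed *Cxcl9*, *Cxcl10* and *Cxcl11*) and the CXCR6 axis, with circles for skin, triangles for nodes and a dashed line at equal level. L skin lies above the line in both panels, and all 12 node libraries lie below it.

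Whether ligand and receptor rose and fell together among libraries of the same group was asked after subtracting each group's mean from log2 CPM. Over the 9 skin libraries, *Cxcl16* and *Cxcr6* went together (Pearson's r = 0.94, exact permutation within groups, p = 0.00694, adjusted p = 0.0486 over 7 relations; Spearman's rho = 0.83, adjusted p = 0.0648). Without the 2 libraries farthest from the median of *Cxcl16*, r was 0.74, and without L sample 7 it was 0.66 (adjusted p = 0.194). *Cxcl9* went with *Cxcl11* (r = 0.92, exact p = 0.0139, adjusted p = 0.0486; rho = 0.83, adjusted p = 0.0648; r = 0.85 without the 2 farthest) and *Cxcl9* with *Cxcl10* (r = 0.88, exact p = 0.0243, adjusted p = 0.0567; rho = 0.95, adjusted p = 0.0486; r = 0.82 without the 2 farthest). *Cxcl10* with *Cxcl11* gave r = 0.66 (exact p = 0.128, adjusted p = 0.225; rho = 0.75). *Cxcl16* with *Cxcr6* and *Cxcl9* with *Cxcl11* passed only in the full set and without WT sample 9 or 10, while *Cxcl9* with *Cxcl10* and *Cxcl10* with *Cxcl11* passed by r only without one of those WT samples (adjusted p = 0.0243). None of the 3 ligands was shown to go with *Cxcr3*, with r = 0.36, 0.14 and 0.44 for *Cxcl9*, *Cxcl10* and *Cxcl11* (exact permutation, adjusted p = 0.527, 0.715 and 0.501; rho = 0.43, 0.23 and 0.37). The value for *Cxcl11* turned to -0.40 without the 2 farthest libraries.

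To see whether receptor transcript followed T cell transcript, each receptor was set against the summed CPM of the CD3 chains *Cd3d*, *Cd3e* and *Cd3g*, which mark alpha beta and gamma delta T cells alike. None of the 3 chains passed in L against WT, with log2 fold changes of 0.88, -0.46 and -0.12 (adjusted p = 0.0647, 0.161 and 0.740). *Cxcr6* amounted to 19.2%, 24.4% and 20.5% of the CD3 sum in WT samples 8 to 10, 23.7% and 20.1% in NL, and 67.4%, 92.1%, 84.7% and 67.8% in L samples 4 to 7. The L libraries lay far above the rest, with a difference of 1.86 in the log2 ratio over WT (two-sided exact permutation test, p = 0.0286, the smallest that 4 against 3 samples can give, adjusted p = 0.133 over 12 tests). *Cxcr3* amounted to 3.27%, 13.6% and 7.17% in WT, 6.41% and 3.29% in NL, and 7.78%, 8.20%, 14.0% and 7.97% in L skin, where L and WT overlapped (difference 0.43, exact permutation p = 0.400), while L lay above NL (difference 1.00, exact permutation p = 0.0667, the smallest that 4 against 2 samples can give). With the whole T cell list the difference between L and NL was 0.085 (exact permutation p = 0.800). Over WT the *Cxcr3* difference changed sign to -0.49 with that list (exact permutation p = 0.400). The *Cxcr6* difference was smaller with it, at 0.95 over WT and 0.91 over NL, again at the smallest p that each design allows (exact permutation p = 0.0286 and 0.0667).

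Markers of the cells that can carry these receptors were counted in the same comparison, in which 23.0% of all genes were higher and 20.2% lower. Of 9 T cell markers 6 were raised in L against WT, and their sum was 32.8 to 43.0 CPM in WT, 40.4 to 51.8 in NL and 38.2 to 90.8 in L skin, with L sample 7 lowest. Of 7 gamma delta T cell markers 4 were lower and 1 higher in L, and their sum was 34.8 to 42.5 CPM in WT and 22.5 to 31.4 in L skin. Of 5 NK cell markers 3 could be tested and 1 was higher, and their sum was 1.78 to 2.40 CPM in WT and 5.86 to 9.41 in L skin, with *Klra8* at 0 throughout. Further lists covered cells that can make the ligands. Of 8 macrophage and monocyte markers 0 passed (671 to 1615 CPM in WT, 491 to 1446 in L). Of 7 dendritic cell markers 1 was higher and 2 lower (29.4 to 62.8 and 26.5 to 34.5 CPM). Of 6 keratinocyte markers 2 were higher (10550 to 12829 and 9779 to 25544 CPM). Of 5 fibroblast markers 1 was lower (2657 to 4196 and 1959 to 4682 CPM). The part of these cells in the results was not tested, and in whole tissue fewer cells of a type and less RNA per cell cannot be told apart.

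**Figure D4:**
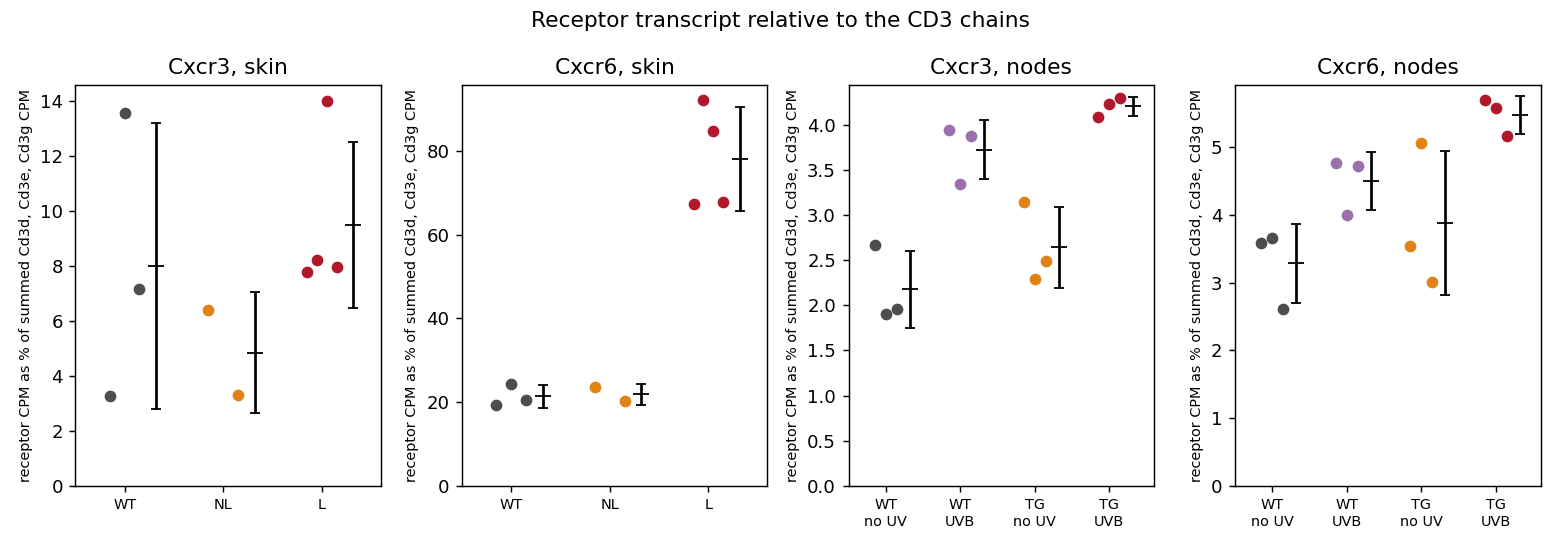
Receptor CPM as a percentage of the summed *Cd3d*, *Cd3e* and *Cd3g* CPM (vertical axis) by group, with a point per library and a bar for the mean and SD. *Cxcr6* in L skin lies between 67.4% and 92.1%, above the 19.2% to 24.4% of the other skin libraries.

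The pathways around both axes were described through 58 genes in 6 lists, of which 56 could be tested in skin. In L against WT 17 of them (30.4%) were higher and 7 (12.5%) lower, against 23.0% and 20.2% of all genes, and in L against NL 8 (14.3%) were higher and 4 (7.14%) lower, against 13.2% and 11.8%. Their median log2 fold change in L against WT was 0.50, and that of all genes was 0.06. Beside a background in which so many genes differed, these counts set the lists little apart.

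Of 6 genes that process or scavenge the ligands, 1 was higher and 3 were lower in L than in WT skin. *Adam10*, the protease that sheds CXCL16 from the membrane, rose by 0.67 on the log2 scale (SE 0.09, adjusted p = 0.000872) from 92.3 CPM ± 6.77 (SD, n = 3) to 146 ± 10.4 (n = 4), and it was also higher in L than in NL (0.61, adjusted p = 0.00552). *Ackr3*, an atypical receptor that takes up CXCL11, fell by 1.19 (SE 0.24, adjusted p = 0.00418), and *Pf4*, which encodes another chemokine that can bind CXCR3, fell by 1.77 (SE 0.39, adjusted p = 0.00744).

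Of 10 genes of the interferon gamma pathway, 3 were higher and 2 lower in L than in WT skin. The feedback inhibitor *Socs1* rose by 1.83 (SE 0.40, adjusted p = 0.00646), while the kinase *Jak1* fell by 0.72 (SE 0.16, adjusted p = 0.00665) and the receptor chain *Ifngr1* by 0.86 (SE 0.19, adjusted p = 0.00778). *Ifng*, the cytokine gene itself, had 117, 34, 203 and 5 counts in L samples 4 to 7, 12 and 0 in NL, and 5, 0 and 4 in WT skin. Its counts in L overlapped with NL, and L sample 7, with the lowest CXCR3 ligands, was at the WT level, while the test over WT passed (adjusted p = 0.0356). *Irf1*, a transcription factor induced by interferon gamma, did not pass (1.29, SE 0.46, adjusted p = 0.0514).

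Of 14 tested genes of the type I interferon pathway, 4 were higher and 0 lower in edgeR, where 23.0% and 20.2% of all genes were. The interferon-stimulated gene *Isg15* rose by 2.51 (SE 0.57, adjusted p = 0.00936) and *Irf9*, a subunit of the factor that binds the response element, by 0.91 (SE 0.25, adjusted p = 0.0170), and *Stat2* and *Ifnk*, the gene carried as transgene, were the others. *Ifit1*, *Ifit3*, *Mx1*, *Rsad2*, *Usp18* and *Irf7* did not pass in edgeR (adjusted p between 0.0577 and 0.472). Of 7 genes of the NF-κB and TNF inputs, 2 were higher, *Il1b* (5.53, SE 1.66, adjusted p = 0.0282) and *Tnf* (2.39, SE 0.80, adjusted p = 0.0416), whereas *Il18* did not pass (0.96, adjusted p = 0.0597).

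Of 11 tested genes of the T helper 1 and residency programme, 6 were higher and 1 lower in L than in WT skin. *Prdm1*, a repressor used by resident T cells and also expressed by other skin cells, rose by 1.59 (SE 0.18, adjusted p = 0.000381) and *Gzmb*, which encodes granzyme B, by 5.41 (SE 0.85, adjusted p = 0.00153), from 6 counts in each WT library to between 154 and 488 in L. The interleukin 12 receptor chain *Il12rb1* was also higher (adjusted p = 0.00739), and *Itgae*, the alpha chain of a residency integrin, by 1.03 (SE 0.29, adjusted p = 0.0188). The gene called lower was the other receptor chain, *Il12rb2*, at -1.81 (SE 0.50, adjusted p = 0.0200), and at -2.53 against NL (SE 0.55, adjusted p = 0.0128). *Tbx21*, *Eomes* and *Stat4* did not pass over WT in edgeR (adjusted p = 0.250, 0.125 and 0.581). Of 8 receptor signalling genes, *Gnai3* rose by 0.44 (SE 0.14, adjusted p = 0.0317), *Arrb1* fell by 0.93 (SE 0.11, adjusted p = 0.000465), and *Gnai2* did not pass (-0.24, adjusted p = 0.0599).

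In the inguinal lymph nodes both receptors stood above their ligands in TPM in every library. With the same lengths *Cxcr3* also stood above the sum of its ligands in 4 of the 5 WT and NL skin libraries. Mean levels in untreated WT nodes were 47.2 TPM ± 11.2 (SD, n = 3) for *Cxcr6*, 34.7 ± 8.10 for *Cxcr3*, 14.1 ± 4.32 for *Cxcl16*, 6.26 ± 2.55 for *Cxcl9*, 1.46 ± 0.995 for *Cxcl10* and 0.105 ± 0.0385 for *Cxcl11*. This order held in the means of all 4 node groups. The ranges of *Cxcr6* and *Cxcr3* overlapped in 3 of the 4 groups and those of *Cxcl16* and *Cxcl9* in 1, while all other neighbours stood apart. The summed CXCR3 ligands were between 0.106 and 0.360 times *Cxcr3*, and *Cxcl16* was between 0.0998 and 0.324 times *Cxcr6*. Skin and nodes differ in age and experiment, so no test was made between them.

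UVB was the first factor in the nodes. *Cxcr3* stood at 26.0, 19.9 and 19.4 CPM in untreated WT samples 1 to 3 and at 30.1, 27.8 and 32.6 in UVB-treated WT samples 7 to 9. In *Ifnk* TG nodes it stood at 27.1, 22.9 and 22.9 without UV (samples 4 to 6) and at 32.3, 37.4 and 44.2 after UVB (samples 10 to 12). The UVB libraries were higher without overlap in both genotypes. The log2 fold change was 0.47 in WT (SE 0.14, adjusted p = 0.0668) and 0.64 in *Ifnk* TG nodes (SE 0.14, adjusted p = 0.160). *Cxcl16* moved the other way, from 16.4, 18.9 and 10.9 to 9.64, 9.53 and 10.6 CPM in WT and from 15.3, 25.7 and 13.5 to 10.6, 9.99 and 8.29 CPM in *Ifnk* TG nodes. Its libraries did not overlap in either genotype, with log2 fold changes of -0.63 (SE 0.24, adjusted p = 0.123) and -0.91 (SE 0.24, adjusted p = 0.249). *Cxcr6* changed by 0.14 (SE 0.21, adjusted p = 0.700) and 0.44 (SE 0.20, adjusted p = 0.542), and *Cxcl9* by -0.08 (SE 0.28, adjusted p = 0.883) and -0.10 (SE 0.28, adjusted p = 0.947).

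In WT nodes 0 of 5 axis genes passed in edgeR, against 2.92% of the 16173 genes called higher and 2.06% called lower. Of the 5 axis genes 3 had an unadjusted p under 0.05 in edgeR, as had 4256 of the 16173 genes. DESeq2 called 1 (*Cxcr3*, adjusted p = 0.0258), against 8.00% of its genes called higher. With the fit limited to WT nodes both *Cxcr3* (adjusted p = 0.0301) and *Cxcl16* (adjusted p = 0.0368) passed, against 10.3% of genes called higher and 5.64% called lower in that fit. *Cxcr3* also passed without *Ifnk* TG UVB sample 10 or 12 (adjusted p = 0.0463 and 0.0289). Without overlap were *Cxcr3* among the higher genes (19.8% of all genes) and *Cxcl10* and *Cxcl16* among the lower ones (17.3%). In *Ifnk* TG nodes 0 of 5 passed in edgeR (0% of all genes higher and 0% lower), 2 had an unadjusted p under 0.05, and DESeq2 called both, *Cxcr3* (adjusted p = 0.00914) and *Cxcl16* (adjusted p = 0.0354), against 0.441% of its genes called higher and 0.403% called lower. There *Cxcr3* was among the 6.23% of genes higher without overlap and *Cxcl16* among the 7.11% lower without overlap. Over all genes edgeR called 0 in *Ifnk* TG nodes, with 1507 at an unadjusted p under 0.05, and DESeq2 called 134. The 805 genes called in WT ranged from 0 without WT sample 8 to 2644 without *Ifnk* TG UVB sample 12.

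**Figure D5:**
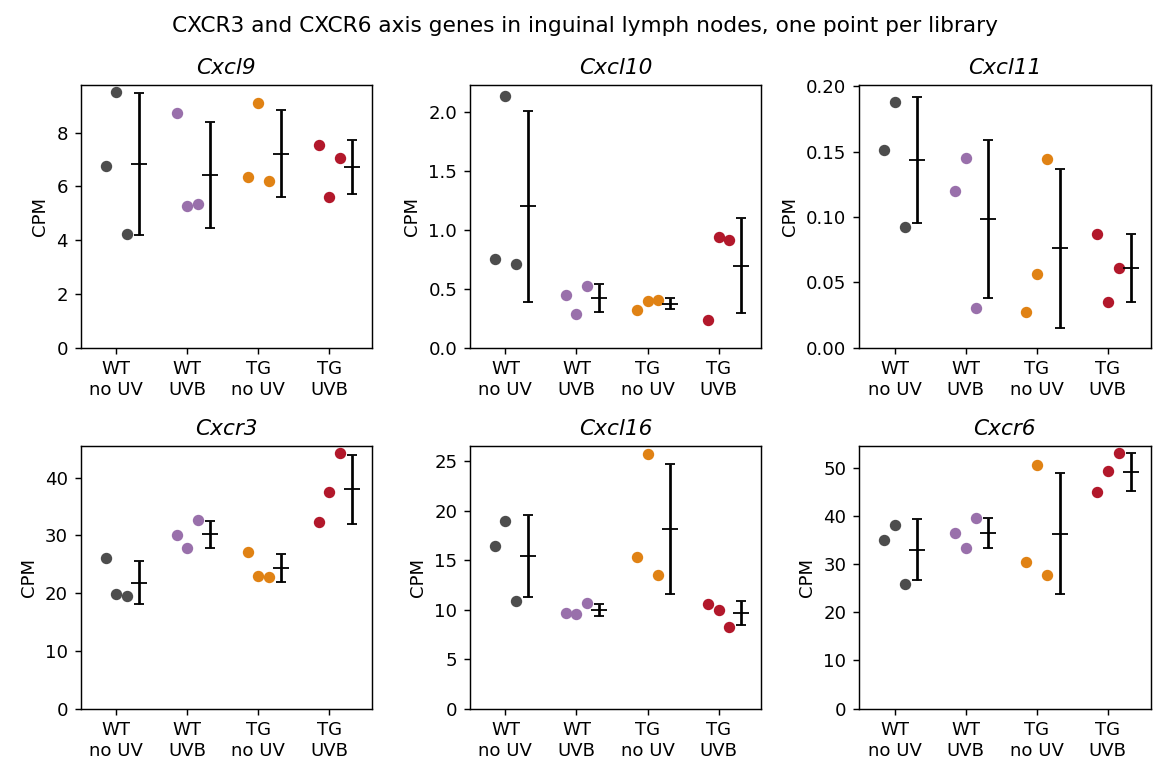
CPM of each axis gene in the 12 inguinal lymph node libraries by genotype and treatment, with a point per library and a bar for the mean and SD. After UVB *Cxcr3* is higher and *Cxcl16* lower without overlap in both genotypes; *Cxcl11* stays at 6 counts or fewer per library.

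Since both responses pointed the same way, they were averaged over the genotypes in the same fit, a comparison chosen after the separate responses were seen. *Cxcr3* was then higher (0.56, SE 0.10, adjusted p = 0.0118) and *Cxcl16* lower (-0.77, SE 0.17, adjusted p = 0.0204) after UVB, and in each case the 6 UVB libraries did not overlap with the 6 untreated ones. These are 1 of 5 axis genes higher and 1 lower, against 4.81% and 3.80% of all genes called. The share of all genes without overlap was 1.60% higher and 1.93% lower. Of the 1393 genes called over both genotypes 55.9% were higher, and 45.1% with upper-quartile scaling. *Cxcr3* passed without any single library (adjusted p between 0.00367 and 0.0363), while *Cxcl16* did not pass without WT UVB sample 8 (adjusted p = 0.0596) and *Cxcr6* passed without *Ifnk* TG untreated sample 5 (0.44, adjusted p = 0.0377). The ratio of *Cxcl16* to *Cxcr6* was between 0.268 and 0.324 in all 6 untreated and between 0.0998 and 0.183 in all 6 UVB libraries. Over all cell type lists, 10 of 68 tested markers were lower after UVB and 0 higher. Of 5 fibroblast markers 2 were lower, with sums of 36.4 to 91.3 CPM without UV and 11.7 to 46.6 after UVB. Of 5 erythroid markers 5 were lower, with sums of 121 to 303 and 10.8 to 159 CPM. Endothelial (1 of 5), adipocyte (1 of 2 tested) and T cell markers (1 of 9) made up the rest. The sums of macrophage and monocyte markers overlapped (213 to 559 and 226 to 364 CPM), and the part of these cells was not tested.

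*Cxcl10* was the only axis gene whose UVB response had opposite signs in the genotypes. It had 25, 68 and 23 counts in untreated and 15, 8 and 17 in UVB-treated WT nodes, and 12, 14 and 14 in untreated and 8, 27 and 30 in UVB-treated *Ifnk* TG nodes. The counts fell without overlap in WT and spread on both sides of the untreated level in *Ifnk* TG nodes. The log2 fold changes were -1.49 (SE 0.55, adjusted p = 0.115) and 0.88 (SE 0.56, adjusted p = 0.662), and the interaction of 2.37 (SE 0.79) did not pass (adjusted p = 0.848). Without UV, *Cxcl10* was lower in *Ifnk* TG than in WT nodes with no overlap (-1.66, SE 0.55, adjusted p = 1), where 4.93% of all genes were lower without overlap. All these *Cxcl10* values rest on 8 to 68 counts per library. The 13 type I interferon pathway genes tested in nodes had medians of the same signs. Their median log2 fold changes were -0.76 for UVB in WT, 1.17 for UVB in *Ifnk* TG nodes and -1.38 for genotype without UV. The median of the interaction was 2.13. Medians of all genes were -0.0048, 0.019, -0.0038 and 0.0082. In each of these comparisons 0 of the 13 passed in edgeR, and a shared cause was not tested. *Cxcl11* had between 1 and 6 counts in each of the 12 node libraries and was not tested.

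Genotype was the other factor. Without UV 0 of 5 axis genes passed in edgeR, 1 had an unadjusted p under 0.05 and DESeq2 called 0; over all genes edgeR called 0 (0%), with 549 at an unadjusted p under 0.05, and DESeq2 2. After UVB 0 of 5 passed, 1 had an unadjusted p under 0.05 (*Cxcr3*, 0.33, SE 0.14, adjusted p = 0.700) and DESeq2 called 0; over all genes edgeR called 0 (0%), with 1131 at an unadjusted p under 0.05, and DESeq2 21. *Cxcr6* was higher without overlap in *Ifnk* TG nodes after UVB (45.0, 49.3 and 53.1 against 36.5, 33.3 and 39.7 CPM, 0.43, SE 0.21, adjusted p = 0.718), as were 5.39% of all genes. The interaction called 0 of 5 axis genes (1 at an unadjusted p under 0.05, *Cxcl10*) and 0% of all genes in edgeR, with 881 at an unadjusted p under 0.05, and DESeq2 called 5 genes and 0 of the axis. Averaged over both treatments, a comparison also chosen after the separate values were seen, 0 of 5 axis genes passed in edgeR, with 1 at an unadjusted p under 0.05 (*Cxcr3*, 0.24, SE 0.10) and 0 in DESeq2, and the single gene called in all (0.00618%), named after its value was seen, was *Glo1*.

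Set against the CD3 chains, *Cxcr3* was 2.67%, 1.91% and 1.96% of the CD3 sum in untreated and 3.94%, 3.35% and 3.88% in UVB-treated WT nodes, and 3.15%, 2.29% and 2.49% and 4.09%, 4.23% and 4.30% in *Ifnk* TG nodes. *Cxcr6* went in the same way from 3.29% ± 0.583 (SD, n = 3) to 4.50% ± 0.431 in WT and from 3.87% ± 1.06 to 5.48% ± 0.282 in *Ifnk* TG nodes. The UVB libraries did not overlap with the untreated ones in any of these 4 comparisons, and each exact permutation test gave p = 0.100, the smallest that 3 against 3 samples can give (adjusted p = 0.133 over 12 tests). The same p was reached between the genotypes after UVB for both receptors, with differences of 0.18 for *Cxcr3* and 0.29 for *Cxcr6* in the log2 ratio. With the whole T cell list the p of *Cxcr6* for UVB in *Ifnk* TG nodes was 0.300 and that of *Cxcr3* between genotypes after UVB was 0.200 (exact permutation tests). The CD3 sum was 975, 1044 and 992 CPM in untreated and 765, 832 and 840 in UVB-treated WT nodes, lower without overlap. In *Ifnk* TG nodes it was 862, 1001 and 917 CPM without UV and 790, 884 and 1028 after UVB, with overlap. In WT nodes the log2 ratio rose by 0.79 for *Cxcr3* and 0.46 for *Cxcr6*, where the receptors themselves changed by 0.47 and 0.14. In *Ifnk* TG nodes it rose by 0.68 and 0.53, where the receptors changed by 0.64 and 0.44.

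Among the 53 pathway genes tested in nodes, UVB raised 5 (9.43%) in WT, against 2.92% of all genes, and lowered 0. These were *Ifng* (1.51, SE 0.35, adjusted p = 0.0343), *Irf1* (0.53, SE 0.11, adjusted p = 0.0303), *Socs1* (0.56, SE 0.13, adjusted p = 0.0325), *Itgae* (0.87, SE 0.18, adjusted p = 0.0304) and *Bhlhe40* (0.61, SE 0.13, adjusted p = 0.0303), a factor used by T helper 1 and resident T cells. In *Ifnk* TG nodes edgeR called 0 of the 53. Averaged over both genotypes 8 (15.1%) were higher and 0 lower, against 4.81% and 3.80% of all genes, among them *Irf3* (0.40, SE 0.10, adjusted p = 0.0308) and *Tnf* (0.81, SE 0.21, adjusted p = 0.0368) beside the 5 called in WT. *Ifng* had 28, 17 and 11 counts in untreated and 44, 55 and 52 in UVB-treated WT nodes. In *Ifnk* TG nodes it had 27, 25 and 21 without UV and 31, 24 and 27 after UVB. The interaction called 0 of the 10 interferon gamma pathway genes, so a difference between genotypes in the response of *Ifng* was not shown.

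Relations within groups were also computed over the 12 node libraries, and none of the 7 passed. *Cxcl16* with *Cxcr6* gave r = 0.87 (exact permutation within groups, p = 0.0532, adjusted p = 0.373; rho = 0.76; r = 0.71 without the 2 farthest libraries), with both genes on the same side of their group mean in 9 of 12 libraries, and it passed without *Ifnk* TG UVB sample 12 (r = 0.97, adjusted p = 0.0486). *Cxcl9*, *Cxcl10* and *Cxcl11* gave r = -0.01, 0.26 and -0.38 with *Cxcr3* (exact permutation, adjusted p = 0.981, 0.732 and 0.587), and the 3 ligand pairs gave r between -0.10 and 0.40. Over all 12 libraries without centring, *Cxcl16* and *Cxcr6* gave r = -0.01 and *Cxcl16* and *Cxcr3* r = -0.65, which include the UVB difference.

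The genes most like each member over the libraries of a tissue, by Pearson's r of log2 CPM, are given as a description, since the libraries share groups and tissue makeup. Over the 9 skin libraries they were *Sprr2a3*, *Sprr2a2* and *Klk1* for *Cxcl9* (r between 0.98 and 0.99), the first 2 being near-identical copies whose counts may be split. They were *AW112010*, *Gmppb* and *Gjb1* for *Cxcl10* (all 0.96) and *Igtp* and *Krt6b* for *Cxcl11* (both 0.98). For *Cxcl16* they were *Litaf*, *Psd4* and *Car13* (all 0.98) and for *Cxcr6* *Skap1*, *4930452G13Rik* and *Smap1* (0.98). For *Cxcr3* they were *Sla*, *Olfr784* and *1500002C15Rik* (0.91, 0.89 and 0.88), and its own ligand gene *Cxcl9* was at 0.49. Among 19100 other genes *Cxcl11* ranked at place 27 for *Cxcl9* and *Cxcl9* at place 7 for *Cxcl11*, while *Cxcl16* ranked at place 583 for *Cxcr6*. In the 12 node libraries the most alike genes were *Cfb* for *Cxcl9* (0.91), *Ifi27l2a* for *Cxcl10* (0.93), *Apol9b* for *Cxcr3* (0.96), *Spire1* for *Cxcl16* (0.93) and *Vangl1* for *Cxcr6* (0.88).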

How the data were processed

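RNA of 9 skin and 12 inguinal lymph node samples was sequenced by the study as poly-A libraries. Per the labels, reads were handled with cutadapt 4.8, FastQC 0.11.8, STAR 2.7.8a, RSEM 1.3.3 and MultiQC 1.20 on GRCm38, and the authors deposited RSEM expected counts per gene. The deposited expected counts are whole numbers and not normalized, so no rounding was needed. The annotation release is not given in the sources used here.

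Counts were analysed in R 4.3.3 with edgeR 4.0.16. The filter on low counts was filterByExpr with the groups given (minimum count 10, minimum total 15), after which 19101 skin and 16173 node genes remained. Libraries were scaled by TMM, all groups of a tissue were fitted together and compared by the robust quasi-likelihood F-test, and p-values were adjusted by Benjamini-Hochberg over all tested genes at a threshold of 0.05. Standard errors come from the F statistic. CPM use the TMM-scaled library sizes, log2 CPM a prior count of 2, and TPM the exon-union lengths of GENCODE M21. Relations used exact permutations within groups, 288 in skin and 1296 in nodes. Receptor ratios used two-sided exact permutation tests. Replicate libraries of a group differed from each other by far more than sampling noise, so none was counted as a copy. The model was also run on simulated counts whose means and spread were taken from these data, and the result is not given here.

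Skin libraries held between 40499078 and 56511276 counts and node libraries between 27599809 and 36428435. A gene at 0 counts could hold up to 3 counts, which is at most 7.41e-06% of a skin library and 1.09e-05% of a node library, and this floor covers counting error only.

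The genes, lists and tests were chosen with earlier results of these data known. Named were the 6 axis genes, up to 3 genes of each pathway list with the smallest adjusted p in L against WT, any pathway gene that passed in a node comparison, and the most alike genes. Further genes of the type I interferon and T helper 1 lists were named after their values were seen. Gamma delta T cell genes with older names were matched by Ensembl identifier, and 85 of 86 marker genes were found. The values of 1 pathway gene are not reported here. Alternatives were DESeq2 1.42.0, RLE and upper-quartile scaling, other filters on low counts, fits of the compared groups alone, no robust estimation, hair, muscle, fat and erythroid genes left out, other prior counts, Spearman's rho, the whole T cell list and each library left out. The averages over genotypes and over treatments were added after the data were seen.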

Additional observations from a re-analysis of the deposited data

Results flagged for a closer look

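In groups of 4 samples a library was picked out where its gap to the nearest other, divided by the range, was over 0.829. This applied only to L skin, where 73 values were examined and 4 were picked out, while chance picks about 1 in 20. *Cxcl16* was picked out for L sample 7, at 35.6 CPM against 73.1 to 75.5 in the other L samples (gap over range 0.940). *Cxcr3* relative to the CD3 chains was picked out for L sample 6, at 14.0% against 7.78% to 8.20% (0.933). *Tyk2*, a kinase of the type I interferon receptor, was picked out for L sample 6, at 28.1 CPM against 22.1 to 22.8 (0.871). *Il1b*, the interleukin 1 beta gene, was picked out for L sample 4, at 366 CPM against 11.8 to 17.4 (0.984). That library also held the most neutrophil marker transcript (540 CPM against 54.3 to 132), and the part of neutrophils was not tested. No axis gene was called by the test of the difference in UVB response between genotypes.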

How the results depend on the processing

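No paired analysis was possible because the labels give no animal, so any pairing of L and NL samples was not modelled. Of the settings that keep every library, the following changed a count of calls by more than 1.5 times or crossed it at 0. In L against WT, requiring 10 counts in every library left 3 axis genes called, since *Cxcl10* and *Cxcl11* were then not tested. In L against NL, 2 were called with no filter, with 10 counts in every library and with only the groups compared, and the last setting gave 3156 genes in place of 4782. DESeq2 called 62 genes in NL against WT and the fit of those groups alone 1. For UVB in WT, DESeq2 called 1972 genes and 1 axis gene and the fit of those groups alone 2431 and 2. For UVB in *Ifnk* TG nodes DESeq2 called 134 genes and 2 axis genes. DESeq2 called 2 genes for genotype without UV, 21 after UVB (where no filter gave 1), 5 for the interaction, 2406 for UVB over both genotypes and 9 for genotype over both treatments (0 without robust estimation). Within groups in skin, *Cxcl16* with *Cxcr6* gave rho = 0.83 (no longer past the threshold), *Cxcl9* with *Cxcl10* rho = 0.95 (past it), and *Cxcl9* with *Cxcl11* rho = 0.83 and r = 0.85 with a prior count of 0.5 (both no longer past it). *Cxcl9* with *Cxcr3* in nodes turned from -0.01 to rho = 0.049, and *Cxcr3* over the whole T cell list in L against WT to -0.49.

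With each library left out in turn, axis genes called ranged from 0 to 5 in L against NL, 0 to 1 for UVB in WT and 1 to 3 for UVB over both genotypes. Genes called ranged from 1182 to 5187 in L against NL, 0 to 2644 for UVB in WT, 0 to 236 for UVB in *Ifnk* TG nodes, 0 to 1 for genotype without UV, 0 to 2 after UVB, 0 to 1 for the interaction, 373 to 3790 for UVB over both genotypes and 0 to 3 for genotype over both treatments. Log2 fold changes near 0 changed sign and had not passed. In NL against WT these were *Cxcl9* (-0.87 to 0.76), *Cxcl10* (-2.23 to 0.51) and *Cxcl11* (-0.56 to 1.34). For UVB they were *Cxcl9* (-0.36 to 0.23) and *Cxcr6* (-0.025 to 0.26) in WT, *Cxcl9* (-0.20 to 0.10) in *Ifnk* TG nodes, and *Cxcl9* (-0.23 to 0.067) and *Cxcl10* (-0.45 to 0.050) over both. For genotype they were *Cxcl9* (-0.17 to 0.39), *Cxcl16* (-0.10 to 0.41) and *Cxcr6* (-0.19 to 0.30) without UV, *Cxcl9* (-0.060 to 0.35) and *Cxcl16* (-0.10 to 0.053) after UVB, and *Cxcl9* (-0.048 to 0.23) and *Cxcl16* (-0.068 to 0.19) over both treatments. For the interaction they were *Cxcl9* (-0.33 to 0.27) and *Cxcl16* (-0.45 to 0.071). Relations in skin ranged from -0.10 to 0.85 (*Cxcl9* with *Cxcr3*), -0.25 to 0.62 (*Cxcl10* with *Cxcr3*), -0.00070 to 0.90 (*Cxcl11* with *Cxcr3*), 0.66 to 0.99 (*Cxcl16* with *Cxcr6*), 0.85 to 0.96 (*Cxcl9* with *Cxcl10*), 0.86 to 0.97 (*Cxcl9* with *Cxcl11*) and 0.51 to 0.87 (*Cxcl10* with *Cxcl11*). In nodes they ranged from -0.35 to 0.19 (*Cxcl9* with *Cxcr3*), -0.19 to 0.59 (*Cxcl10* with *Cxcr3*), 0.71 to 0.97 (*Cxcl16* with *Cxcr6*), -0.11 to 0.64 (*Cxcl9* with *Cxcl10*) and -0.35 to 0.13 (*Cxcl10* with *Cxcl11*). *Cxcr3* over CD3 in L against WT ranged from -0.10 to 0.92. The cause of these changes was not tested beyond the smaller number of samples or genes that each setting leaves.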
